A study of Mus musculus with 35 samples.

Results

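The regions described here are the UTX peaks that overlapped no peak of H3K4me3 and no peak of H3K27me3. They were chosen from the broad peaks called for UTX on chromosomes 1 to 19, as those sharing not even 1 base with any peak in 4 lists, namely the wild-type and the female knockout list of each mark. Of the 21656 UTX peaks on these chromosomes, 7827 met the rule, or 36.1% (exact Clopper-Pearson 95% interval 35.5% to 36.8%, counting error only). Of the 13829 others, 10067 overlapped H3K4me3 alone, 3507 overlapped both marks and 255 overlapped H3K27me3 alone. The UTX list held 23748 peaks in all, the remainder lying on chromosome X.

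UTX, encoded by the X-linked gene Kdm6a, removes methyl groups from lysine 27 of histone H3. It is a subunit of the complexes built around the methyltransferases KMT2C and KMT2D, which place H3K4me1 at enhancers. H3K4me3 marks active and poised promoters, and H3K27me3, deposited by Polycomb repressive complex 2, marks silenced or poised genes. Neither of the 2 marks measured here is the usual mark of an active enhancer, so a UTX peak outside both carries no chromatin label in these data.

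The study concerns UTX in the cranial neural crest of the mouse, a migratory embryonic population from which most facial bone and cartilage derive. UTX was mapped by chromatin immunoprecipitation in 1 library of O9-1, a wild-type cranial neural crest line derived from Wnt1-Cre, Rosa-GFP embryos at E8.5 (8.5 days of gestation), kept in culture and crosslinked for 30 minutes in 0.3% formaldehyde. The histone marks were mapped on unfixed chromatin of Tomato-positive cranial neural crest sorted at E12.5 from Wnt1-Cre, Rosa-Tomato embryos. Per mark there were 3 libraries of wild-type males, 3 of female knockouts (Utx fl/fl) and 1 of a male knockout (Utx fl/y). All of these groups carry Wnt1-Cre, which deletes in the Wnt1 lineage and not in the rest of the embryo. In the comparison of female knockouts with wild-type males, sex and genotype cannot be told apart. A UTX peak and a mark peak therefore come from different cells, stages and fixations, and a UTX peak outside both marks is outside the marks of sorted embryonic crest, not of O9-1.

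The UTX library held 2995484 reads in its peaks, of which 2708269 lay on chromosomes 1 to 19. Mark libraries held 22645778 to 40129294 reads in H3K4me3 entries and 15412991 to 19088922 in H3K27me3 entries. In RNA of the sorted cells, the summed level of 5 neural crest markers was 350 to 377 CPM (counts scaled to a common library total) in the 2 wild-type libraries and 397 to 404 in the 2 female knockout libraries, and that of 4 facial mesenchyme markers was 866 to 916 and 928 to 995. Leukocyte, endothelial and epithelial markers each summed to at most 6.06 CPM in these libraries. Of the erythroid markers, Hba-a1 was at 0 in all of them and Hbb-b1 at most at 0.061 CPM. Reads that did not align uniquely are not counted for any gene, so these globin values alone do not exclude erythroid cells. Kdm6a stood at 47.3 and 55.5 CPM in the wild-type and at 49.7 and 62.7 in the female knockout libraries. In the male knockout libraries it stood at 39.7 and 30.8 CPM, below both wild-type values. A count over the whole gene does not check a deletion of part of it. No RNA of O9-1 was analysed here, so the identity of that line was not checked. Sequences and gene positions of build mm9 were not used here, so the regions are given by coordinate and no gene is assigned to them.

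UTX peaks outside both marks were narrower and held fewer reads than the marked ones. Their median width was 1137 bases (quartiles 672 to 1997, range 291 to 17549), against 1739 bases (999 to 3024) for UTX peaks that overlapped a mark, a ratio of 0.654 (95% interval from order statistics 0.643 to 0.666). Their median read count was 42 (26 to 79, range 7 to 1385), against 97 (51 to 179), a ratio of 0.433 (0.423 to 0.443). Read density, the count divided by the width, had a median of 39.7 reads per kb (33.7 to 46.8), against 55.7 (44.7 to 68.2), a ratio of 0.713 (0.708 to 0.718). The unmarked peaks thus made up 36.1% of the UTX peaks, covered 26.1% of the bases and held 19.2% of the reads. Membership used positions in the same list, and wide peaks have more chance to touch a mark, so these are descriptions of 1 library and were not tested. The intervals of these ratios, and of the fold ratio below, are those of the unmarked median with the marked median held fixed. They treat peaks of 1 library as independent and leave out the error of the marked median.

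The 255 UTX peaks on H3K27me3 alone resembled the unmarked ones in both respects, with a median width of 1126 bases, 46 reads and 39.8 reads per kb. UTX peaks on H3K4me3 alone had 99 reads and 57.6 reads per kb, and those on both marks 96 reads and 51.8 reads per kb. In this library, high density therefore went with H3K4me3.

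Unmarked peaks were less dense than marked ones within each range of width, and the difference was smallest among the narrowest peaks. Among UTX peaks under 0.5 kb wide, 56.8% lay outside both marks, with medians of 47.8 reads per kb outside and 52.8 on the marks. Between 0.5 and 1 kb the share was 46.1%, with 39.3 and 52.9 reads per kb. Between 1 and 2 kb it was 36.2%, with 36.8 and 56.1 reads per kb. At 2 kb or more it was 24.8%, with 39.8 and 57.6 reads per kb. Density of the marked peaks was higher in the wide classes than in the narrow ones, while that of the unmarked peaks was highest in the narrowest class.

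Ranked by density, the UTX peaks ran from mostly unmarked to almost all marked. Of the lowest-ranking 10% of them, 71.1% lay outside both marks, and of the highest-ranking 10%, 1.80%. Ranked by read count, the share went from 66.1% at the lowest to 9.33% at the highest, and ranked by width from 56.8% to 17.0%. None of the 10 UTX peaks with the most reads was outside both marks, 1 of the top 100 was, and 64 of the top 1000 were.

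**Figure D1:**
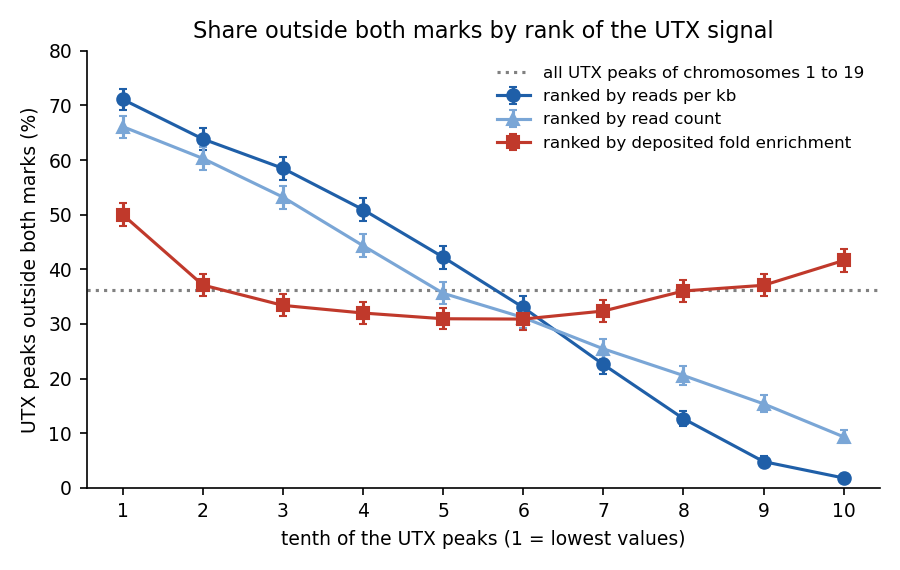
Percent of UTX peaks outside both marks (y axis) in 10 equal classes of the 21656 UTX peaks on chromosomes 1 to 19 (x axis, from lowest to highest), ranked by reads per kb, read count or deposited fold enrichment. Bars are exact 95% intervals and the dotted line is the share over all of them, 36.1%; the share falls from 71.1% to 1.80% by reads per kb and lies between 30.9% and 50% by fold.

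The deposited fold enrichment gave another picture, and it could not be tied to the reads of its own peak. Its median was 2.08 outside both marks and 2.10 on them, a ratio of 0.992 (0.981 to 1.00), and ranked by fold the share outside both marks ran from 50% at the lowest values through 30.9% in the middle to 41.6% at the highest. Across the 7827 unmarked peaks, however, Spearman's rho between fold and reads per kb was 0.014, and across all 21656 UTX peaks it was 0.043 for fold and 0.065 for −log10 q. Fold values of neighbouring entries in the list correlated at 0.48, and their read densities at 0.07. The H3K4me3 lists showed the same. In 30489 places where a wild-type and a female knockout H3K4me3 peak covered each other by over 50%, their widths correlated at 0.97 and their read densities at 0.96, but their fold values at 0.064 and their −log10 q values at 0.068. In the H3K27me3 lists, −log10 q followed read density, with rho at 0.93 for wild-type and 0.91 for female knockout peaks. These correlations are across peaks of shared libraries and are descriptions. Whether a fold or q value in the UTX and H3K4me3 lists belongs to the peak on its line cannot be settled from the files, so the statements here rest on width, reads and position.

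The unmarked peaks with the highest fold illustrate this. The peak at chr1:122153432-122153899 has a deposited fold of 14.1 and −log10 q of 43.4 on 16 reads in 468 bases, or 34.2 reads per kb. The peak at chr1:129518905-129519366 has a fold of 11.5 on 17 reads, chr15:64162435-64163404 a fold of 10.1 on 32 reads, chr12:113324078-113324389 a fold of 10.1 on 16 reads and chr3:54930873-54931390 a fold of 9.66 on 14 reads. All 5 held fewer reads than the median unmarked peak, and the density of 4 of them was below its median.

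The unmarked peak with the most reads was unlike the rest. It lies at chr9:3025288-3025776, near the centromeric end of the assembled chromosome, and held 1385 reads (exact Poisson 95% interval 1313 to 1460) in 489 bases, which is 2832 reads per kb, with a deposited fold of 1.12. The nearest mark peak was 309 kb away. A second dense peak, chr2:77812188-77815145, held 933 reads in 2958 bases, or 315 reads per kb, 27.5 kb from a mark. The other 3 of the top 5 were wide and of less extreme density: chr11:86455026-86469295 with 930 reads at 65.2 per kb, chr4:88694667-88709032 with 890 reads at 62.0 per kb and chr8:113308629-113319822 with 820 reads at 73.3 per kb.

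Unmarked peaks were rare among the densest 1000 UTX peaks, with 15 members, but 5 of the densest 10 were unmarked. Besides the peaks on chromosomes 9 and 2 already named, these were chr11:3093333-3093635 with 165 reads at 545 per kb, chr4:118220599-118221105 with 151 reads at 298 per kb and chr2:77789418-77789905 with 127 reads at 260 per kb. These 3 were singled out after their values were seen. No input counts per UTX peak were used here, so the level of the control at these sites was not tested.

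The widest unmarked peaks lay nearer to H3K4me3 than to H3K27me3. The first, chr10:76661220-76678768, covered 17549 bases with 738 reads and ended 365 bases from an H3K4me3 peak. The next, chr3:95528314-95543735, covered 15422 bases with 798 reads and lay 13.99 kb from H3K4me3. The peak at chr8:124697157-124712344 covered 15188 bases with 704 reads, 5.04 kb from H3K4me3. Their densities, 42.1, 51.7 and 46.4 reads per kb, were between the unmarked median and the marked median.

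Most unmarked UTX peaks lay within 10 kb of a mark peak, and the nearest mark was usually H3K4me3. The median distance from edge to edge was 7.96 kb (95% interval 7.70 to 8.24; quartiles 3.27 to 17.8 kb). Within 1 kb lay 6.39% of them, within 5 kb 36.0%, within 10 kb 57.4%, within 50 kb 93.8% and within 100 kb 98.2%, leaving 137 farther away. The median distance to H3K4me3 was 8.495 kb and to H3K27me3 37.7 kb. The nearest mark was H3K4me3 for 6299 unmarked peaks (80.5%) and H3K27me3 for 1528 (19.5%). The H3K4me3 lists also hold more peaks on these chromosomes than the H3K27me3 lists, 89151 against 34080 over both genotypes, and the part of that in the nearer distance was not tested.

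The distance to H3K27me3 was close to that of UTX peaks on H3K4me3 alone, whose median to the nearest H3K27me3 peak was 40.4 kb. UTX peaks on H3K27me3 alone had an H3K4me3 peak at a median of 2.29 kb. By genotype, the median distance of the unmarked peaks was 8.88 kb to a wild-type and 12.4 kb to a female knockout H3K4me3 peak, and 41.2 kb and 41.7 kb to the H3K27me3 peaks. A wild-type H3K4me3 peak was the nearer for 5050 (64.5%) and a female knockout one for 2740 (35.0%). The wild-type list holds more H3K4me3 peaks on these chromosomes, 50795 against 38356.

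**Figure D2:**
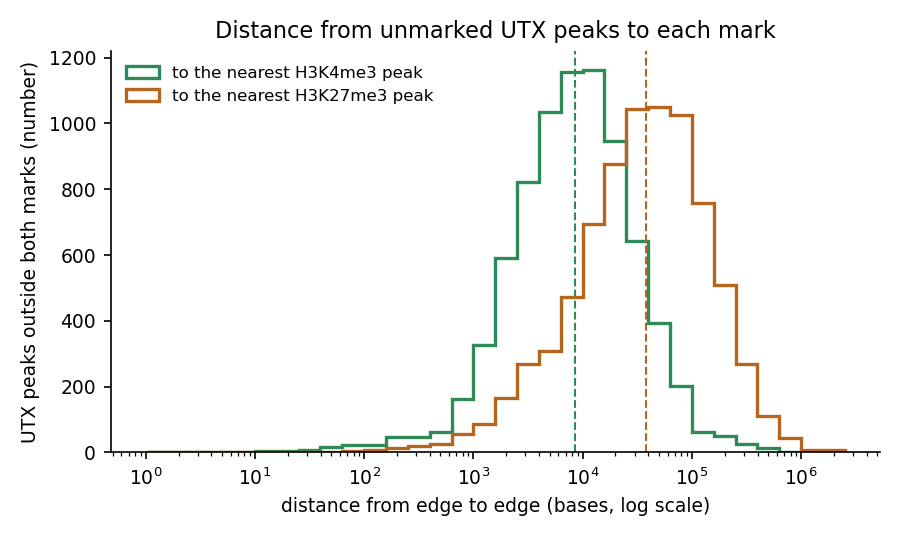
Number of the 7827 UTX peaks outside both marks (y axis) by the distance in bases, from edge to edge, to the nearest H3K4me3 and the nearest H3K27me3 peak of either genotype (x axis, log scale). Dashed lines are the medians, 8.495 kb for H3K4me3 and 37.7 kb for H3K27me3.

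Within 10 kb of the unmarked peaks, a mark on both sides was less frequent than a mark on exactly 1 side or on neither. A mark peak lay within 10 kb on both sides of 1235 of them (15.8%), on exactly 1 side of 3254 (41.6%) and on neither side of 3338 (42.6%). Within that distance 3058 (39.1%) had H3K4me3 alone, 1269 (16.2%) had both marks and 162 (2.07%) had H3K27me3 alone. The nearest UTX peak that itself overlapped a mark was at a median of 17.7 kb, and within 10 kb for 36.1%.

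Density did not fall off with distance from the marks. From the nearest class to the farthest, the medians were 37.8 reads per kb under 1 kb (500 peaks), 38.8 at 1 to 5 kb (2321), 40.5 at 5 to 10 kb (1668), 40.2 at 10 to 50 kb (2853), 40.6 at 50 to 100 kb (348) and 38.5 beyond 100 kb (137). Those under 1 kb from a mark were thus no denser than those beyond 100 kb. Median width ranged from 1024 to 1159 bases over the same classes.

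**Figure D3:**
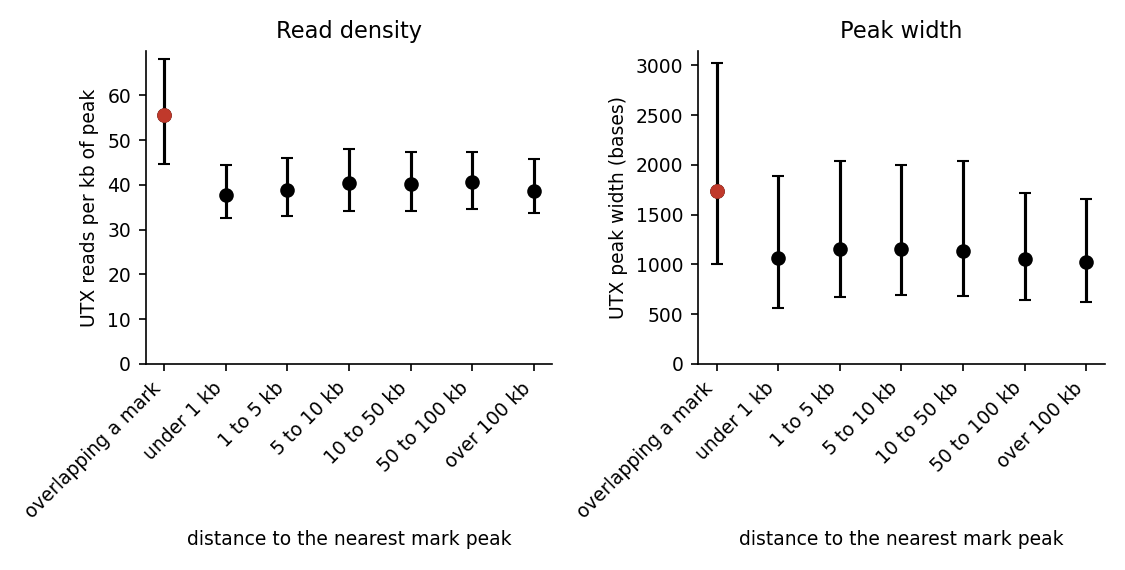
Median reads per kb (left) and median width in bases (right) of UTX peaks that overlap a mark (red) and of the unmarked ones by distance to the nearest mark peak (black), with bars from the lower to the upper quartile over peaks. The 6 unmarked classes lie between 37.8 and 40.6 reads per kb, below the 55.7 of the marked peaks.

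At the edge of the rule, the values on either side were as follows. The closest unmarked peaks were chr17:46393461-46393863, with 17 reads and 4 bases from an H3K27me3 peak, chr11:94403934-94405312, with 44 reads and 10 bases from H3K4me3, and chr2:166287075-166289357, with 69 reads and 10 bases from H3K4me3. Just on the other side, chr13:97697748-97698754 with 39 reads overlapped a mark by 2 bases, chr15:64457621-64458714 with 60 reads by 7 bases and chr1:159003368-159007490 with 168 reads by 10 bases. The densities of these 6 ran from 30.2 to 54.8 reads per kb.

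The most isolated unmarked peaks included a pair of neighbours on chromosome 13. The peaks at chr13:27816004-27817334 (42 reads) and chr13:27822092-27826220 (122 reads) lay 569 kb and 560 kb from any mark, the first of them 1158 kb from H3K27me3. The peak at chr1:175841073-175844831 (189 reads) lay 520 kb from both marks.

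Part of the unmarked peaks came in groups. Joined wherever the gap was at most 10 kb, the 7827 peaks formed 5993 groups, of which 4699 held a single peak, 931 held 2, 363 held at least 3 and 38 at least 5. The groups of 2 or more held 39.96% of the peaks, and the median gap between neighbours was 52.2 kb. The smallest gap was 1166 bases, and the smallest distance from an unmarked peak to a marked UTX peak was 1165 bases. Marked UTX peaks were not grouped in the same way, so these groups have no comparison. The largest group held 10 peaks in 50.5 kb at chr15:83233254-83283744. From left to right these held 75, 192, 70, 16, 20, 29, 37, 25, 110 and 74 reads, and the nearest mark was 7.92 to 31.0 kb away. The group thus joined 4 peaks of at least 74 reads to smaller ones of 16 to 70, at densities of 29.2 to 56.3 reads per kb. A group of 8 lay at chr15:59340768-59383934 with 1190 reads in all, and groups of 7 at chr11:5857610-5903926 with 816 reads and chr2:102701456-102729062 with 494 reads.

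Chromosome 15 held more unmarked UTX peaks than its share. On it 573 of 1241 UTX peaks (46.2%, interval 43.4% to 49.0%) lay outside both marks, followed by chromosome 1 with 43.9%. The lowest shares were on chromosome 4 with 27.3%, chromosome 7 with 28.4% and chromosome 9 with 28.9%. Set against the number of wild-type H3K4me3 peaks, chromosome 15 had 28.1 unmarked UTX peaks per 100, and the other 18 chromosomes 9.48 to 19.1. For marked UTX peaks, its 32.7 per 100 was within the 20.4 to 35.2 of the others. The median density of the unmarked peaks was 40.1 reads per kb on chromosome 15 and 38.5 to 40.9 elsewhere. Input reads per region were not used here, so neither these counts nor those of the windows are corrected for the number of copies of a region in O9-1, and its part in them was not tested.

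**Figure D4:**
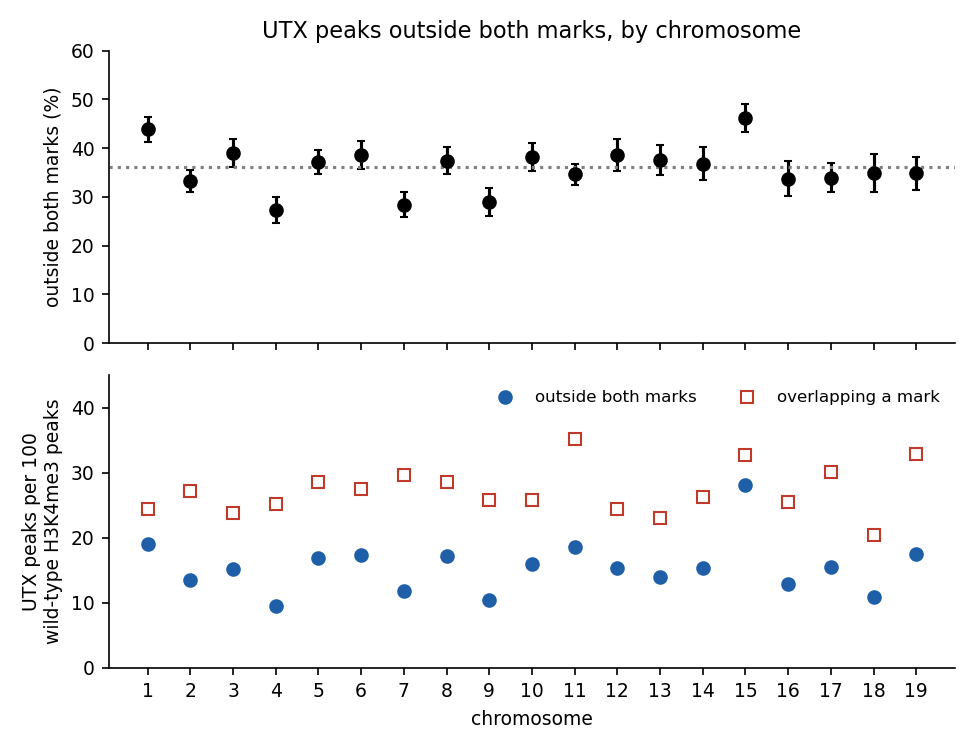
Upper plot, percent of UTX peaks outside both marks on each chromosome, with exact 95% intervals and the share over all (36.1%, dotted). Lower plot, UTX peaks per 100 wild-type H3K4me3 peaks, outside both marks (filled) and overlapping a mark (open); for the unmarked peaks chromosome 15 stands at 28.1 and the others reach at most 19.1.

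Windows of 5 Mb, a size chosen after the data were seen, placed much of this in a stretch of chromosome 15. Over the 492 windows with a UTX peak the median number of unmarked peaks was 13 and the highest 75, and 21 windows had none. At chr15:60000001-65000000, 63 of 84 UTX peaks were unmarked (75%, interval 64.4% to 83.8%), and at chr15:55000001-60000000, 58 of 88 (65.9%, 55.0% to 75.7%). At chr8:10000001-15000000 it was 60 of 102 (58.8%, 48.6% to 68.5%). Both windows with 75 unmarked peaks, chr11:115000001-120000000 and chr15:75000001-80000000, were rich in UTX peaks of all kinds, with 192 and 207, and their shares were 39.1% and 36.2%. Across the windows named in this paragraph, the median density of unmarked peaks ran from 37.9 to 43.5 reads per kb.

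Some UTX peaks were counted as marked through the list of 1 genotype alone. Of all UTX peaks, 940 (4.34%) overlapped only marks called in wild type and 143 (0.660%) only marks called in the female knockout. A missing call is not a test of lost signal, so mark reads near the unmarked peaks were compared between genotypes. Here 3 female knockout libraries were set against 3 wild-type ones with edgeR's quasi-likelihood test over all mark peaks of chromosomes 1 to 19, at a Benjamini-Hochberg adjusted p below 0.05. The labels do not say that libraries came from separate embryos, so p-values measure the spread between these libraries, which may be technical. The mark tables list wild-type and knockout calls one after the other, so 1 region can count as 2 entries. An entry called in 1 genotype alone was listed for its signal there, so its direction leans toward that genotype by the choice.

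H3K4me3 near the unmarked UTX peaks changed about as often as elsewhere. Of 9002 tested H3K4me3 entries within 10 kb of an unmarked UTX peak, 5532 passed the test (61.5%), against 57.4% of all 88217 tested. Higher in the female knockout were 2581 (28.7%, against 24.8% of all tested) and lower 2951 (32.8%, against 32.5%). The median log2 fold change was −0.07 near the unmarked peaks and −0.08 over all entries. Near the unmarked peaks, libraries deviated from the wild-type mean by a median log2 CPM of 0.0057, −0.0022 and −0.00028 for wild-type and −0.08, −0.04 and −0.04 for female knockout ones (pooled SD 0.018), so the groups did not overlap. These deviations were taken after scaling between libraries and were not computed over all entries. The split by direction follows the scaling: DESeq2 gave 2636 higher and 1684 lower, with medians of 0.00 near and −0.02 over all, and total counts without TMM (edgeR's trimmed scaling factors) gave 1328 and 3685, with −0.18 and −0.20. Under each scaling the median near the unmarked peaks was slightly above that over all entries.

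Among those entries, direction went with whether the H3K4me3 peak itself overlapped a UTX peak. Of the 3860 entries near an unmarked UTX peak that overlapped no UTX peak, 283 (7.33%) were higher and 1745 (45.2%) lower, with a median log2 fold change of −0.39. Of the 57019 that overlapped no UTX peak and had no unmarked one within 10 kb, 11.7% were higher and 40.7% lower, with a median of −0.30. Of the 5142 near an unmarked peak that did overlap a UTX peak, 2298 (44.7%) were higher and 1206 (23.5%) lower, with a median of 0.09, while over all 27338 H3K4me3 entries on UTX peaks 54.7% were higher and 13.7% lower, with a median of 0.13. In both classes the entries near unmarked UTX peaks had the lower median, a difference that was not tested. Entries on UTX peaks were 5142 of the 9002 near an unmarked peak and 27338 of all 88217. The pooled medians above therefore mix the 2 classes in unlike shares, and the higher pooled median near unmarked peaks does not hold within either class. The wild-type H3K4me3 peaks on UTX were also wider, 2317 bases at the median against 584 for those near an unmarked peak and on no UTX peak, and the part of width and signal in these differences was not tested. Wild-type calls gave 2363 of the entries near an unmarked peak and on no UTX peak and knockout calls 1560, against 14229 and 13166 on UTX peaks. On wild-type calls alone, the median near unmarked UTX peaks was −0.20, against −0.21 over all such entries. The part of the calling lists in the direction was not tested.

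**Figure D5:**
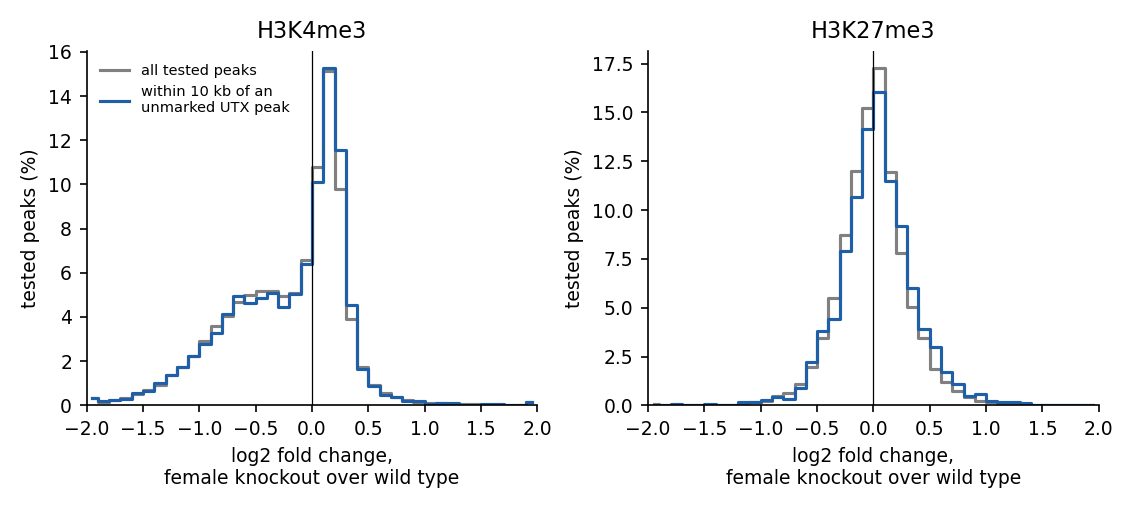
Percent of tested mark entries (y axis) by log2 fold change of female knockout over wild type (x axis, bins of equal width, values beyond the axis in the end bins), for all tested entries (grey) and those within 10 kb of an unmarked UTX peak (blue). Near unmarked UTX peaks the medians are −0.07 for H3K4me3 and 0.03 for H3K27me3, against −0.08 and 0.00 over all.

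H3K27me3 near the unmarked UTX peaks was more often higher than lower in the female knockout. Of 2639 tested entries within 10 kb, 768 passed (29.1%, against 25.8% of all 33893), 485 of them higher (18.4%, against 13.9% of all) and 283 lower (10.7%, against 11.9%). The median log2 fold change was 0.03, against 0.00 over all entries. Near the unmarked peaks, libraries deviated from the wild-type mean by a median log2 CPM of 0.0046, 0.0069 and −0.0052 for wild-type and 0.026, 0.034 and 0.023 for female knockout ones (pooled SD 0.0061), so the groups did not overlap. Here too the deviations were taken after scaling and were not computed over all entries. Without TMM the calls near the unmarked peaks were 389 higher and 382 lower and the median −0.02, against −0.04 over all. The median near the unmarked peaks was above that over all entries either way, while its sign against 0 followed the scaling.

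Calls of H3K27me3 in both directions were more frequent where the entry itself overlapped a UTX peak, the higher ones more so. Of the 1315 such entries near unmarked UTX peaks, 320 (24.3%) were higher and 151 (11.5%) lower, against 21.9% and 14.5% of all 6668 entries on UTX peaks. Of the 1324 that overlapped none, 165 (12.46%) were higher and 132 (9.97%) lower, near the 11.9% and 11.3% of the 25901 entries away from both. On UTX peaks the median log2 fold change was 0.038 near unmarked peaks, against 0.019 over all such entries. On none it was 0.0086, against −0.0056 away from both. Entries on UTX peaks were 1315 of the 2639 near an unmarked peak and 6668 of all 33893. The pooled shares and medians above therefore mix the 2 classes in unlike shares, and the part of this mix was not tested. The wild-type H3K27me3 peaks on UTX were also wider, 3569 bases at the median against 1560 for those near an unmarked peak and on no UTX peak. Their median −log10 q was 9.21, against 2.56. No test of the difference between these classes was made, nor of the part of width and signal in it.

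The male knockout was a single library, so no share of calls is read from it. In an edgeR fit of the 7 libraries per mark, its median log2 fold change over wild type near the unmarked UTX peaks was −0.09 for H3K4me3, against −0.08 over all entries, and 0.02 for H3K27me3, against −0.01 over all. These values have no replicate check, and they share the wild-type libraries with the female comparison.

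The H3K4me3 peak with the smallest p within 10 kb of an unmarked UTX peak rose about as much in each library. At chr2:154844109-154846033, an H3K4me3 peak on a UTX peak and 6773 bases from an unmarked one, the wild-type libraries gave 6.18, 6.48 and 6.91 CPM and the female knockouts 34.9, 31.4 and 33.7. The means were 6.52 ± 0.367 (SD, n = 3) and 33.3 ± 1.81 (SD, n = 3), which is 2.35 on the log2 scale (SE 0.063, adjusted p by edgeR 2.35e-88), and all 3 knockout libraries were above all wild-type ones. The male knockout library held 1206 reads there, against 151 to 251 in the wild-type libraries. The wild-type call of the same place gave 2.32.

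A second H3K4me3 peak, chr14:70008296-70012205, lay 770 bases from an unmarked UTX peak. Wild-type libraries had 41.7, 39.7 and 40 CPM and knockout libraries 76.5, 75.8 and 72.4 (log2 fold change 0.89, SE 0.040, edgeR adjusted p 4.03e-53). Lower in the knockout was chr19:20463511-20465791, with 15.1, 14.1 and 14.5 CPM against 5.47, 6.22 and 5.53 (−1.35, SE 0.075, edgeR adjusted p 1.09e-40), and the knockout call of the same place gave −1.35 as well. At chr7:82784482-82792329 the values were 40.4, 43.6 and 42.9 against 23.8, 24.8 and 24.03 CPM (−0.80, SE 0.047, edgeR adjusted p 7.24e-39). In each of these 3 peaks the libraries of the 2 groups were apart. Unscaled, the male knockout library held 1857, 106 and 821 reads at these 3 peaks. The wild-type libraries held 924 to 1453, 329 to 525 and 1015 to 1558, and the female knockouts 2397 to 2853, 183 to 207 and 795 to 886. The male library was deeper than any wild-type one, with 38974537 reads in H3K4me3 entries against 22645778 to 35382100.

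For H3K27me3, the rise with the smallest p was at a peak of 17374 bases, chr12:110682921-110700294, which overlapped no UTX peak and lay 2750 bases from an unmarked one. Wild-type libraries had 99.96, 94.8 and 97.1 CPM and knockout libraries 168.8, 165.0 and 162.3 (log2 fold change 0.77, SE 0.034, edgeR adjusted p 1.83e-111). The male knockout library held 2371 reads there, against 1493 to 1677 in the wild-type ones. At chr5:141080333-141089364, on a UTX peak, the values were 130.5, 119.9 and 125.4 against 188.1, 177.4 and 179.6 CPM (0.54, SE 0.032, edgeR adjusted p 9.6e-60). There the male knockout library held 2675 reads, against 1928 to 2189 in the wild-type and 2822 to 3325 in the female knockout ones. That library held 17734520 reads in H3K27me3 entries, against 15412991 to 17372670 in the wild-type ones.

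H3K27me3 was lower at chr4:108549897-108553259, 6054 bases from an unmarked UTX peak and on none itself. The values were 12.3, 12.4 and 12.1 CPM against 4.07, 4.93 and 4.52 (log2 fold change −1.44, SE 0.108, edgeR adjusted p 6.01e-38). At chr8:73338418-73345563, 1207 bases from an unmarked UTX peak, they were 38.9, 36.5 and 36.4 against 22.3, 23.8 and 22.3 CPM (−0.71, SE 0.056, edgeR adjusted p 5.38e-34). All 3 female knockout libraries were below all wild-type ones at both. The male knockout library held 108 and 486 reads, against 186 to 214 and 559 to 652 in wild type and 71 to 87 and 351 to 421 in the female knockouts. These peaks were chosen for their p among 2639 and 9002 tests, and they do not describe the neighbourhood of unmarked UTX peaks in general.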

How the data were processed

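Reads were handled with Trimmomatic, Bowtie2, SAMtools, bedtools and MACS2 on build mm9, per the submitters' processing notes; versions and settings are not given in the sources used here. The deposited UTX list gives a raw read count, a fold ratio and −log10 p and q per MACS2 broad peak. The mark lists were called by the authors on merged replicates, per the labels, and the deposited mark tables hold raw counts per peak. In both H3K27me3 lists the fold column holds impossible values and was not used.

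Overlap meant at least 1 shared base. Interval code in Python 3.11.15 was checked against bedtools 2.31.1 and intervals with known answers. Coordinates are 1-based. Mark counts were tested with edgeR 4.0.16 (TMM, filterByExpr, glmQLFTest; R 4.3.3), with DESeq2 1.42.0 as an alternative, and checked on simulated data. RNA values are deposited HTSeq counts scaled to CPM. Replicates of a group differed only a little more than sampling noise, for which chi-square per degree of freedom is about 1. Pairs of libraries gave 1.10 to 1.43 for H3K4me3 and 1.05 to 1.18 for H3K27me3. Exact intervals of shares and read counts cover counting error only. Reads carry no molecular identifiers, so the intervals of read counts treat each read as a separate molecule.

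The members, lists and tests were chosen with earlier results of these data known. Peaks were named by rank in read count, width, fold and distance, and mark peaks by p.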

Additional observations from a re-analysis of the deposited data

Results flagged for a closer look

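On chromosome X, which the comparisons above leave out because sex and genotype go together, 1074 of 2092 UTX peaks (51.3%, exact 95% interval 49.2% to 53.5%) overlapped neither mark, against 36.1% on chromosomes 1 to 19. They were singled out as signal in data outside the main comparisons. Their median width was 1149 bases, close to the 1137 of the unmarked peaks elsewhere, with 36 reads and 33.7 reads per kb. The marked UTX peaks of chromosome X had 37.7 reads per kb, against 55.7 on chromosomes 1 to 19, so the gap in density between marked and unmarked peaks was smaller on X. The wild-type mark libraries are of males and the knockout lists of females, so the copies of X differ between them. The copy number of X in O9-1 was not checked, and the part of copy number in these values was not tested.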

How the results depend on the processing

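UTX peaks outside both marks stayed narrower, with fewer reads and lower density, under every alternative run. Their share was 36.8% with wild-type mark lists only, 33.8% when a mark within 1 kb also counted and 46.1% when mark peaks had to cover at least 50% of the UTX peak. These last 2 gave ratios to marked peaks of 0.668 and 0.834 in width, 0.447 and 0.548 in read count and 0.724 and 0.698 in reads per kb, with median distances of 8.84 and 5.02 kb. By width, from narrow to wide, the ratio of read counts was 0.9, 0.718, 0.646 and 0.616 and that of reads per kb 0.905, 0.744, 0.657 and 0.692, so under 0.5 kb little of the difference was left. The fold ratio was 1.00, 1.02 and 0.980 in the 3 wider classes. Limits on −log10 q rest on a column that does not follow the reads in the UTX and H3K4me3 lists. With mark peaks at 5 or more the share was 43.7%, the ratios 0.677, 0.475 and 0.724 and the distance 11.6 kb. With UTX peaks at 5 or more 1342 were unmarked (39.0%), with a width ratio of 0.672, a fold ratio of 1.03 and 7.16 kb. At 1 or more, a limit chosen after seeing the data, as was leaving out chromosome 15, the share was 34.2% and the ratios 0.636 in width, 0.706 in reads per kb and 1.04 in fold. Near unmarked peaks, the H3K4me3 median log2 fold change was −0.0012 with DESeq2, −0.18 without TMM and −0.20 on wild-type calls alone. Those calls gave 33059 changed H3K4me3 entries (66.0%), 3505 of them near (69.1% of those near), and 4612 (26.7%) and 398 (29.9%) for H3K27me3 with a median of 0.016. DESeq2 called 4888 H3K27me3 entries (14.3%), 453 near (17.1%). Windows of 2 and 50 kb gave 925 (59.5%) and 16997 (59.8%) H3K4me3 calls, against 57.4% over all entries, and 140 (28.5%) and 2623 (28.2%) H3K27me3 calls, against 25.8%, the wider with an H3K27me3 median of 0.015. Without TMM the H3K27me3 median reversed to −0.019, and the cause was not tested. Leaving out each replicate gave 41005 to 49728 H3K4me3 calls, 4566 to 5454 near with medians of −0.07 to −0.05, and 7150 to 7842 H3K27me3 calls, 658 to 717 near with medians of 0.02 to 0.03. Deviations of same-numbered libraries correlated at 0.11, 0.015 and 0.017 for H3K4me3 and at −0.0014, −0.0091 and 0.015 for H3K27me3. Those of different numbers ran from −0.080 to 0.063 for H3K4me3 and from −0.018 to 0.020 for H3K27me3. Only the H3K4me3 value of 0.11, for replicate 1, lay outside these ranges. With a replicate block 52935 H3K4me3 entries passed, 5764 near, and 8949 and 783 for H3K27me3, which moved no count by over 1.5 times. The lone UTX library gives no replicate spread, and peaks with few reads, down to 7, are the least certain.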
